A study of Mus musculus with 3 samples.

Results

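The 516 most deeply read cytosines in the deposited lists of 5-methylcytosine (m5C) in mouse oocyte and 1-cell embryo RNA are described here. They were selected on their measured coverage, as the sites listed in the germinal vesicle (GV) oocyte, the metaphase II (MII) oocyte and the 1-cell embryo with 300 or more reads in each list. They made up 8.40% of the 6145 sites listed at every stage and 1.28% of the 40298 distinct sites, and lay in 316 genes. Coverage and presence in the lists chose the sites, so both are given as description and neither was tested.

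The series follows RNA m5C through oocyte maturation and fertilization, with 1 library per stage, made from wild-type C57BL/6J cells. By the labels all females were 7 to 8 weeks old, and the embryos came from matings with C57BL/6J males. Ovaries gave the GV oocytes, 48 h after pregnant mare serum gonadotrophin (PMSG, 10 IU), and the MII oocytes from oviducts 12 h after 5 IU of human chorionic gonadotrophin (hCG) in females primed with 10 IU of PMSG. The 1-cell embryos were flushed 24 h after 5 IU of hCG in females that, by their own label, had received 5 IU of PMSG, and about 200 embryos made up a library according to the text of the series. By the labels the RNA was polyadenylated, but the study's methods describe removal of ribosomal RNA and also another dose of hCG and a wider age range, so these details are not settled. The 1-cell list itself is in doubt. Among the mouse sites tabulated with the study, of which only the first rows were read here, coverage and level match the deposited lists for GV and MII, while for 1-cell most sites in both have other values. Which processing or run the deposited 1-cell list holds is not settled, and this touches the choice of sites, every 1-cell level and every difference from it. The labels word the conversion differently for the oocytes and for the embryos, and a library effect cannot be told apart from one of stage. With no replicate, every test below compares the reads of these libraries and not the stages.

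Reads at listed sites summed to 4475058 (GV), 5285011 (MII) and 2616279 (1-cell), and the chosen sites held 27.5%, 22.4% and 17.1% of them. Their median coverage was 1508, 1372 and 482 reads in the same order. Of the sites listed at every stage, 2475 had 300 reads in both oocyte lists, and the 1-cell embryo list had the lowest coverage at 510 of the 516 chosen sites. A shallow library therefore set the choice. Of 11 oocyte marker genes, 8, 9 and 11 were listed in the order of the stages, and Bmp15, Btg4, Gdf9, Npm2, Ooep and Zar1 held chosen sites. Of 13 markers of follicle somatic cells 1, 3 and 2 were listed, at a coverage of up to 444, 625 and 79 reads, so by the coverage rule none could hold a chosen site. Of 4 sperm markers 1, 1 and 0 were listed, and 0 of 5 markers of early zygotic transcription.

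In RNA bisulfite sequencing an unmethylated cytosine is read as T and m5C stays C, so the share of unconverted reads at a cytosine is its m5C level. In messenger RNA the mark is written mainly by NSUN2, which acts on cytosines followed by G-rich sequence (Type I sites), and by NSUN6, which acts at CUCCA in a hairpin loop (Type II sites). The growing oocyte stores messenger RNA that serves meiosis and the first divisions, and transcription is largely silent from the fully grown GV oocyte until the embryonic genome is switched on. The level is a share of the molecules of a transcript, so it does not count methylated molecules.

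The sequence around a site is shown for the sites on which the results below turn, as 25 bases of the spliced transcript 5′ to 3′ read from GRCm38 with GENCODE M21 transcripts. Capitals mark the listed cytosine and the 4 bases after it, the part that separates Type I from Type II. The first set holds the deepest sites, all in the coding sequence of Zbed3, where the GV oocyte levels of the 4 sites run from 11.1% to 94.1%.
Zbed3, chr13:95336337, plus strand: gaugugcaccugCCGGAgcugaaga
Zbed3, chr13:95336484, plus strand: agccagcgggagCUGGAgcuggagc
Zbed3, chr13:95336559, plus strand: caggcucugaagCAGGAggcacaau
Zbed3, chr13:95336614, plus strand: uagagcgugaagCACUGaguaagug
The second set holds sites whose level rose most between libraries.
Cdca4, chr12:112821574, minus strand: aggaacucuucuCAGAUguggacag
Tcl1, chr12:105216864, minus strand: gccagggucaccCAGGGaagccuug
Tle6, chr10:81596029, minus strand: ucaaaagcacccCGGGGccucagcu
Psenen, chr7:30562837, minus strand: uggagcggguauCCAAUgaggagaa
Oas1e, chr5:120791854, minus strand: accgaccuucauCAGAGcuuccuga
Mlf2, chr6:124932455, plus strand: gccgcauguuguCAGGCggcuuugg
Another set holds sites whose level was lower in the MII oocyte than in the GV oocyte.
Sdc1, chr12:8771567, plus strand: gcagagccggccCGGAGcuccgugc
Pfn1, chr11:70654374, minus strand: gggccgccguccCCGGGaagaccuu
Gnas, chr2:174330406, plus strand: caagcaggucuaCCGGGccacgcac
Rplp0, chr5:115560981, plus strand: cucacugagauuCGGGAuaugcugu
Rps9, chr7:3705759, plus strand: cggcggcuuguuCGCAUuggggugc
A further set holds Type II sites, which begin with CUCCA here and differ in what follows.
Rnf114, chr2:167515859, plus strand: guggcaccacgcCUCCAcaguggug
Rragc, chr4:123935733, plus strand: gcuuaguccuccCUCCAgggucaga
Oas1c, chr5:120808045, minus strand: agaggagcccaaCUCCAggucucug
Kpna7, chr5:144993960, minus strand: gcacccgaagacCUCCAuccaggug
Tent5b, chr4:133486720, plus strand: gacguucgcgccCUCCAgcgauaca
The last set holds neighbouring cytosines that were both chosen and whose levels went apart.
Uhrf1, chr17:56322905, plus strand: gugugcuucauuCCAGGgguggccc
Uhrf1, chr17:56322906, plus strand: ugugcuucauucCAGGGguggcccc
Ehf, chr2:103279636, minus strand: cugcaucccuuuCCAGGaguucgac
Ehf, chr2:103279635, minus strand: ugcaucccuuucCAGGAguucgaca

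Levels of the chosen sites were mostly low and were higher at each later stage. The median was 18.6% for GV, 24.5% for MII and 34.7% for 1-cell, against 21.9%, 28.4% and 46.7% at the 5629 other sites listed at every stage. Sites at 50% or more numbered 55, 91 and 146, and sites under 20% numbered 284, 178 and 65. Across the 516 sites, which come from the same libraries and are not replicates, the levels had a Pearson's r of 0.974 between both oocyte libraries, 0.917 between MII and 1-cell and 0.886 between GV and 1-cell. The 95% Wilson interval of a level was 3.89 points wide at the median site of the GV library, 4.37 points for MII and 7.55 points for 1-cell, where points are percentage points of level. Reads were not marked by molecule, so intervals and tests cover counting error alone. A site under 10% is not in the lists, so a fall from a low level to below that limit cannot be seen among these sites.

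**Figure D1:**
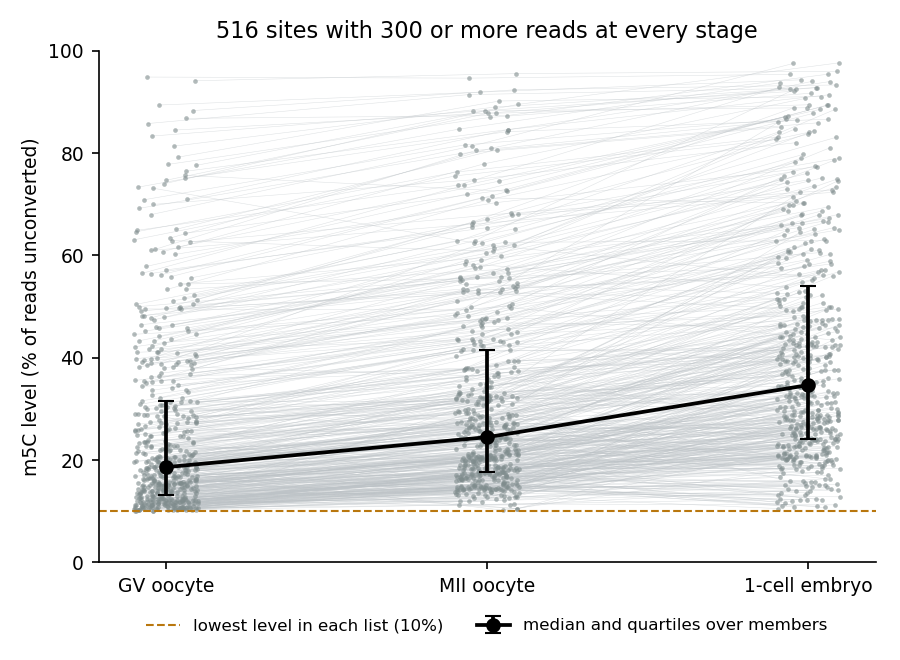
m5C level (vertical axis, percent of reads unconverted) of each of the 516 sites in the 3 libraries, with thin lines joining the values of a site. The black points are medians (18.6%, 24.5% and 34.7%) with quartiles over sites, and the dashed line is the 10% minimum of the lists.

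At the deepest site of all, each interval was less than 1 point wide. In Zbed3, whose product is part of the subcortical maternal complex of the oocyte, the site at 95336559 was at 11.1% in GV (10.8% to 11.3%, 60941 reads), 19.0% in MII (18.7% to 19.3%, 74120 reads) and 20.7% in 1-cell RNA (20.2% to 21.2%, 26806 reads). The site at 95336484, in the same exon, was at 94.1%, 95.5% and 96.0%, on 44791, 55823 and 23303 reads. The sites at 95336337 and 95336614 went through 13.1%, 21.2% and 22.6% and through 15.1%, 23.0% and 28.1%. One more site of the gene, in the 3′ UTR at 95337177, was at 38.9%, 48.9% and 61.0%. All 5 rose at both steps, and the order of the 5 levels was the same in the 3 libraries. The second step was small at 95336559, 95336484 and 95336337 (1.71, 0.459 and 1.39 points). With reads divided by 5, to stand for read copies, Fisher's exact test gave these an adjusted p of 0.0755, 0.513 and 0.33. For the second steps at 95336614 and 95337177 it gave 1.13e-08 and 0.0315.

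At the first step, GV to MII, 369 of the 516 sites rose and 8 fell by Fisher's exact test on unconverted and converted reads with Benjamini-Hochberg adjustment over every shared site, where rose and fell mean an adjusted p under 0.05. Over all 12954 sites shared by these lists, 19.6% rose and 0.965% fell. Calls grow with depth, so the shares are not comparable as they stand. By a rule of size with no test, 96 chosen sites (18.6%) were higher by 10 points or more and 2 were lower by as much, against 25.3% and 3.88% of the shared sites. Counting error carries more of the shallow sites past 10 points in either direction, so shares by this rule, here and below, also depend on depth. The level was higher at 490 sites (95%), and the median difference was 5.61 points (order-statistic interval 5.35 to 6.01), against 4.87 points over the shared sites. With all reads divided by 5, to stand for read copies, 11.2% of the chosen sites rose.

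The largest rise was at Cdca4, which codes for a nuclear protein tied to cell division. Its levels were 38.8%, 62.5% and 79.7% on 513, 554 and 306 reads, a first step of 23.7 points (17.7 to 29.4, exact test, adjusted p = 1.14e-12). The 3′ UTR of Tcl1, a co-activator of the kinase AKT that the egg supplies to the embryo, came next at 105216864. It went from 11.7% to 33.0% and then to 57.1%, on 3235, 3163 and 816 reads (first step of 21.4 points, adjusted p = 2.43e-93 by the exact test). Pla2g4c, a phospholipase A2, was at 39.6%, 59.0% and 72.9%, and Wdr5, a core subunit of histone H3K4 methyltransferase complexes, at 61.2%, 80.5% and 86.5%. The Pla2g4c window has a copy in the transcripts of 1 other gene. Tle6, a further part of the subcortical maternal complex, was at 47.8%, 66.5% and 88.9% on 4493, 2762 and 1113 reads. These 5 sites were higher at every later stage, with no overlap of their intervals between any pair of libraries except MII and 1-cell at Wdr5.

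The 8 sites that fell lay in 7 genes, and all 8 rose again at the second step, MII to 1-cell. Sdc1, which codes for the cell surface proteoglycan syndecan-1, was at 28.6% (26.3% to 30.9%), 13.1% (12.0% to 14.4%) and 26.8% (23.0% to 30.9%), on 1457, 3120 and 478 reads, with a fall of 15.4 points (exact test, adjusted p = 1.02e-31). Pfn1, the actin-binding protein profilin-1, was at 73.1%, 62.5% and 78.2% on 2156, 2544 and 675 reads (adjusted p = 8.56e-13 for the fall by the exact test). For these sites the GV oocyte and 1-cell embryo levels lay closer to each other than to that of the MII oocyte. Gnas, which codes for the stimulatory G protein alpha subunit, was at 18.1%, 13.0% and 41.7% at 174330406. Rps9 and Rplp0, which code for ribosomal proteins, were at 14.9%, 10.5% and 27.8% and at 23.6%, 19.0% and 49.3%. The other 3 falls were in noncoding RNA, in both chosen sites of Rpph1, the RNA of ribonuclease P, and in a 7SL gene. The windows of these 3 and of Rps9 have copies in other genes, and without such sites 4 falls were left (0.847%). With reads divided by 5, the fall of Sdc1 alone was called (adjusted p = 5.06e-05 by the exact test), and that of Pfn1 was not (exact test, adjusted p = 0.077). Markers of follicle somatic cells were listed most often, and at the highest coverage, in the MII library (3 genes, up to 625 reads), where these sites were lowest, and their part in the falls was not tested.

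**Figure D2:**
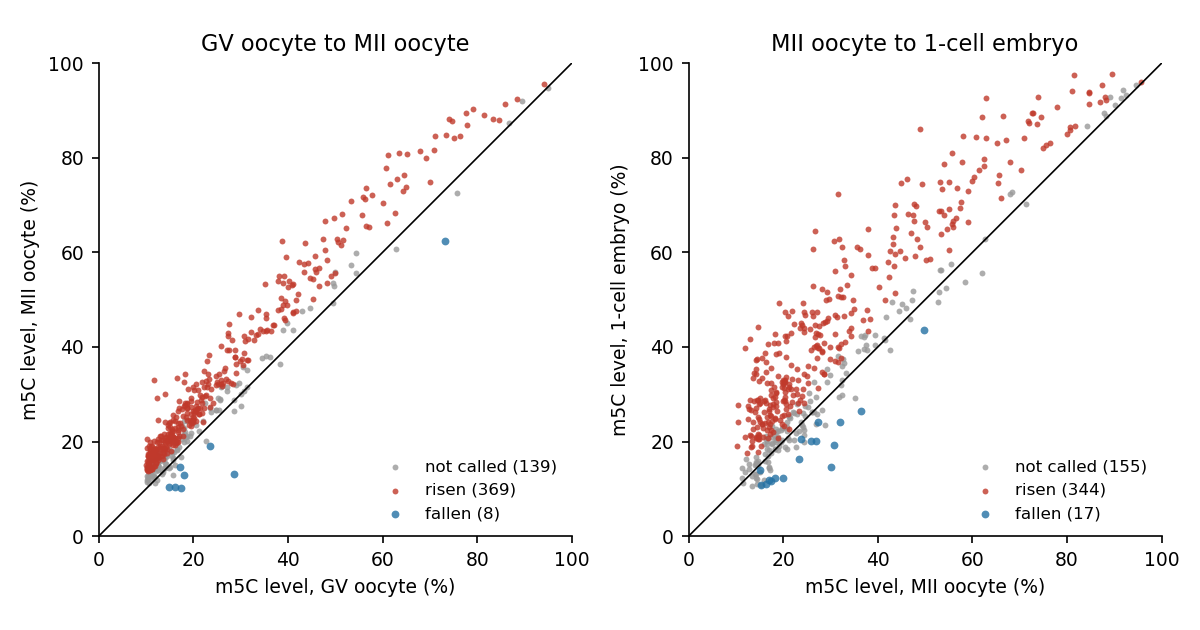
m5C level of each chosen site at the earlier stage (horizontal axis, percent) against the later stage (vertical axis, percent), for GV and MII on the left and for MII and 1-cell on the right, coloured by the call of Fisher's exact test. On the left 369 sites rose and 8 fell and the points keep close to a band above the diagonal, and on the right 344 rose and 17 fell and the points spread further from it.

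At the second step 344 of the 516 sites (66.7%) rose and 17 fell, while 51.3% and 2.45% of the 8015 shared sites did. Differences of 10 points or more upward were seen at 223 chosen sites (43.2%) and downward at 3, against 57% and 4.43% of the shared sites. The level was higher at 450 sites, and the median difference was 8.22 points (7.05 to 9.31), against 12.7 points over the shared sites, so that 172 of the 516 sites lay above the median of all shared sites. The spread was wider than at the first step. Intervals were also wider in the 1-cell library (7.55 points at the median site), and the part of counting error in the spread was not tested. The middle 80% of the chosen sites ran from 1.62 to 12.5 points at the first step and from -0.957 to 21.7 points at the second.

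Psenen, a subunit of the gamma-secretase complex, had the largest second step. It went from 19.9% and 31.5% in the oocytes (1529 and 1388 reads) to 72.3% after fertilization (67.8% to 76.4%, 408 reads), a rise of 40.8 points (exact test, adjusted p = 3.66e-46). Oas1e, of the oligoadenylate synthetase family, was at 20.4%, 26.8% and 64.5% and Mlf2 at 39.8%, 48.8% and 86.0%. A 5′ UTR site of Gnas at 174330268, on the same exon as the site above, was at 23.8%, 26.2% and 60.8%, and the site of Cs, the citrate synthase gene, at 30.8%, 30.8% and 62.4%. At these 4 sites the interval of the 1-cell embryo lay above those of both oocytes, and the first step was 9.07 points or less. The rises of Psenen, Oas1e, Mlf2, Gnas and Cs were also called with reads divided by 5 (highest adjusted p = 0.000531, at Cs, by the exact test).

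The largest fall at this step was at Tesc, which codes for the calcium-binding protein tescalcin. The level was 14%, 30.0% and 14.7% on 801, 833 and 421 reads, a rise of 16 points followed by a fall of 15.3 points (exact tests, adjusted p = 4.8e-13 and 1.31e-08). Rnf114, an E3 ubiquitin ligase, was at 27.2%, 30.7% and 19.2% at its Type II site, and Rragc, a GTPase that signals amino acid supply to mTORC1, at 25.3%, 32.1% and 24.1%. Aldh9a1, an aldehyde dehydrogenase, was at 28.9%, 36.5% and 26.5%, and Oas1c at 16.8%, 20.0% and 12.3%. The other 12 sites that fell lay in Tcl1, Lsm14b, AU022751, Tubb3, Itpr2, Tgfb2, Csnk1a1, Eif1ax, Fam83g, Uhrf1, Anxa7 and a 7SL gene, named here because they are few and not by the rule. With reads divided by 5 none of the 17 falls was called by the exact test, and the lowest adjusted p among the 5 above was 0.0648, at Oas1c.

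**Figure D3:**
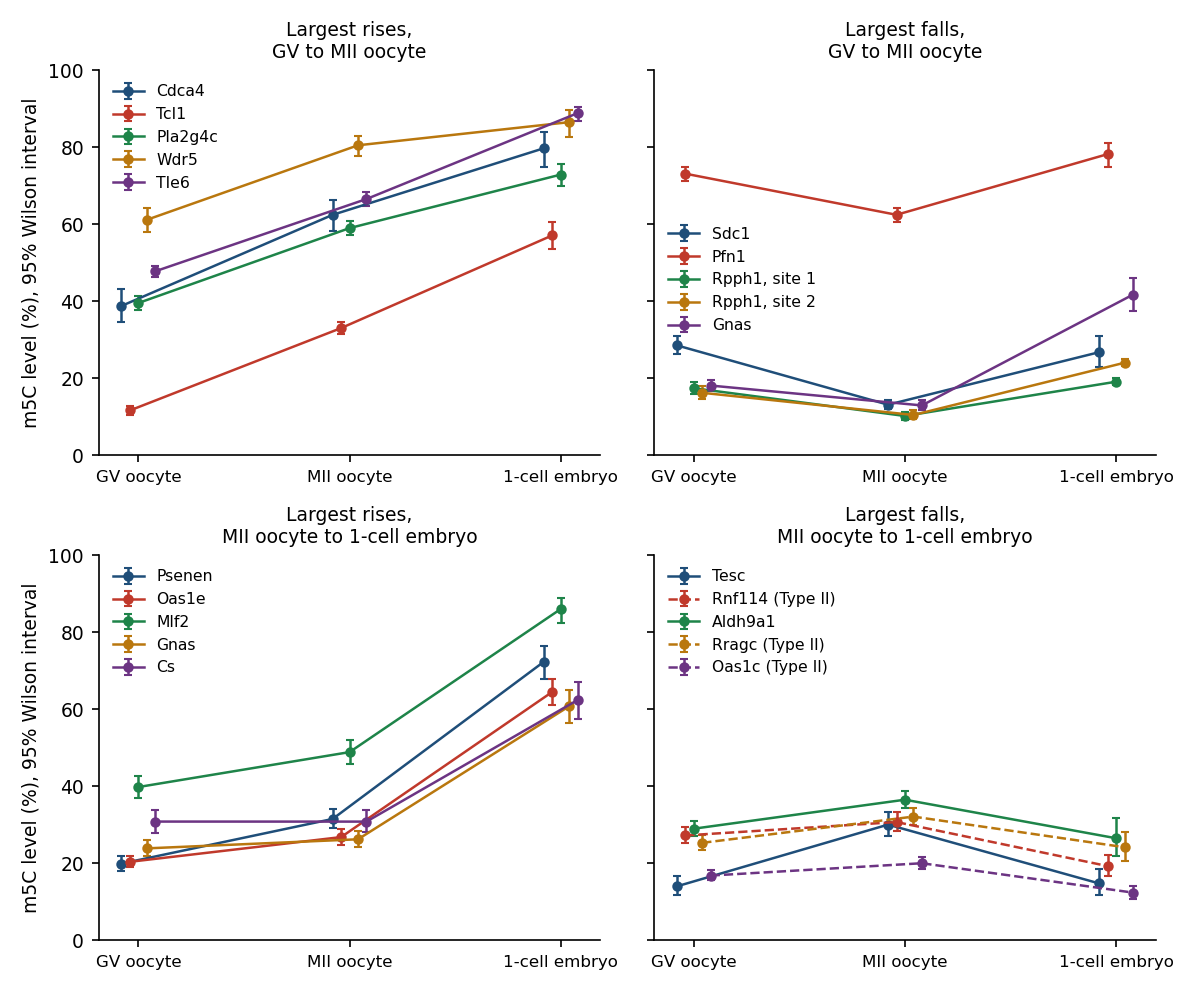
m5C level with 95% Wilson interval (vertical axis, percent) at each stage for the 5 largest called rises and falls at each step among the chosen sites, with dashed lines for Type II sites. Levels that fell at the first step are higher again at the second, as at Sdc1 (28.6%, 13.1%, 26.8%). Of those that fell at the second step, Tesc (14%, 30.0%, 14.7%) returns to near its GV level while Rnf114 (27.2%, 30.7%, 19.2%) and Oas1c (16.8%, 20.0%, 12.3%) end below theirs, with the MII oocyte as the shared library of both steps.

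Over both steps, GV against 1-cell, 454 sites (88.0%) rose and 3 fell, while 66.1% and 1.05% of the 6478 shared sites did. Of the chosen sites 338 (65.5%) were higher by 10 points or more and 0 were lower by as much, against 70.1% and 2.19%. The median difference was 14 points (12.9 to 15.3), and 19.2 points over the shared sites. The 3 that fell by the exact test were Rnf114 at 167515859 (27.2% to 19.2%, adjusted p = 3.78e-05), Oas1c at 120808045 (16.8% to 12.3%, adjusted p = 0.00018) and a 7SL site (16.1% to 14%). The windows of the latter 2 have copies in other genes, and without such sites Rnf114 alone fell (0.212%). This comparison shares both libraries with the other 2 and adds no reads to them. Step by step, 251 sites (48.6%) were called risen and risen again, 104 risen and then not called, 85 not called and then risen, 14 risen and then fallen, 8 fallen and then risen, 3 not called and then fallen and 51 called at neither step. The level was higher at both steps at 425 sites (82.4%), against 66.1% of the other sites listed at every stage, and lower at both steps at 1 site. Counting error turns the sign of a difference more often at shallow sites, so these 2 shares are not comparable as they stand. For 28 sites no pair of libraries was called.

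Of the 5 sites that moved least, 1 was near the top of the scale and 4 lay under 20%. Tent5c, which codes for a non-canonical poly(A) polymerase, held the highest GV level among the chosen sites, and its 3′ UTR site at 100470427 was at 94.9% (93.6% to 95.9%), 94.6% (93.2% to 95.8%) and 95.4% (92.9% to 97%) of 1499, 1214 and 411 reads. Oaz1, the antizyme that holds ornithine decarboxylase in check, stayed at 17.5%, 16.7% and 17.0%. Map4k5, a kinase, was at 12.0%, 11.2% and 12.3%, Ankrd13a at 10.3%, 11.4% and 11.3%, and Zfp655 at 13.9%, 14.4% and 15.5%. The second step of Oaz1 had an interval of -3.65 to 4.84 points, so a shift of that size could not have been detected at this depth.

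The first step was of like size at every depth and the second was not. The sites listed at every stage were divided by their lowest coverage over the 3 stages, which the choice of sites used, so the values are given with no test. At the first step the median difference was 5.54 points at 20 to 49 reads (2296 sites) and 5.90, 5.78 and 5.47 points at 50 to 99, 100 to 199 and 200 to 299 reads. Among the chosen sites it was 5.61 points at 300 to 499 reads (271 sites), 5.56 points at 500 to 999 reads (169 sites) and 6.03 points at 1000 reads or more (76 sites). At the second the median was 19.5, 12.8, 9.90 and 9.91 points in the 4 shallower bands and 9.62, 8.25 and 6.22 points in the 3 bands of chosen sites. At 1000 reads or more the 2 steps were thus 6.03 and 6.22 points. The lists need 5 unconverted reads, which sets a higher level minimum for a site of 20 to 49 reads, and the part of this minimum in the band values was not tested.

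The smaller second step of the chosen sites was present at each starting level. Among sites at 10% to 15% in the GV oocyte, the first step was 4.46 points at 176 chosen sites and 4.34 points at 1468 other sites, and the second 6.48 and 12.8 points. At 20% to 30% it was 6.22 and 6.17 points at the first step, and 9.34 and 14.3 points at the second. Between 50% and 80%, with 46 chosen and 631 other sites, the first step was larger at the chosen sites (11.2 against 7.52 points) and the second smaller (10.1 against 13.0 points). Depth in the list and abundance of the RNA move together here, and their part was not tested apart. In the 1-cell list the other sites had a median of 60 reads and a first quartile of 35, against a median of 482 at the chosen sites. The minimum of unconverted reads (above) therefore cuts off low 1-cell levels at the shallow ones among the other sites. An equal GV level does not remove this cut, and its part in the contrast was not tested.

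**Figure D4:**
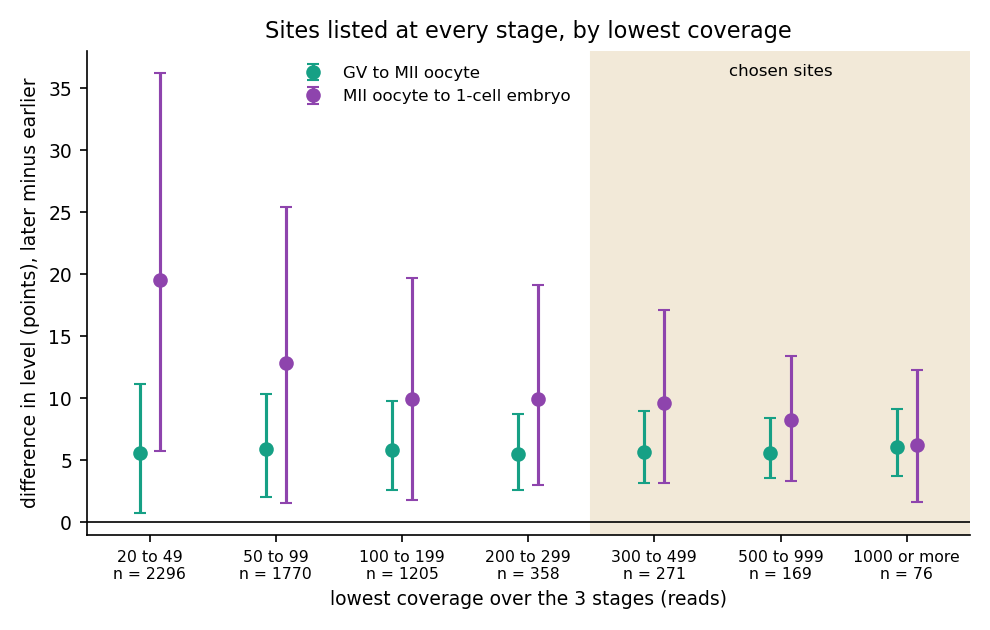
Median difference in m5C level (points, vertical axis, bars for the interquartile range over sites) for each step, by the lowest coverage of a site over the 3 stages (horizontal axis, reads, with the number of sites). The first step stays between 5.47 and 6.03 points in all bands, and the second goes from 19.5 points at 20 to 49 reads to 6.22 points at 1000 reads or more, with the chosen sites on the shaded ground.

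Type II sites made up 31 of the 516 (6.01%, interval 4.26% to 8.40%), and 5.40% of the other sites listed at every stage. Their median levels were 19.7%, 23.2% and 24.1% in the order of the stages, against 18.6%, 24.5% and 36.1% at the 485 chosen Type I sites. At the first step 19 of 31 rose and 0 fell, with a median difference of 4.63 points (3.20 to 5.70), and 350 of 485 Type I sites rose, with 5.70 points (5.44 to 6.16). At the second step 12 Type II sites rose and 5 fell, with a median of 2.23 points (0.00639 to 5.13), while 332 Type I sites rose and 12 fell, with 8.66 points (7.80 to 10.1). At the second step the intervals of the 2 medians did not overlap. This is description and no test, since these intervals take sites as independent, while sites share transcripts and come from 1 library per stage. Type II sites higher by 10 points or more at the second step numbered 2 of 31, and Type I sites 221 of 485. Among the other sites listed at every stage, the median second step was 9.17 points (6.64 to 11.5) at 304 Type II sites. It was 14.2 points at the Type I sites among them, and the first step was 3.10 points (Type II) and 5.90 points (Type I). These other Type II sites had a median of 62 reads in the 1-cell list, against 522 at the chosen ones. The second step varied with depth over all sites listed at every stage (above). The 2 sets of Type II sites are therefore not comparable as they stand, and whether the small step is general to Type II sites cannot be told from them.

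Several of the deepest Type II sites lay in transcripts of the oocyte, and their second steps went both ways. Nlrp4f, of the NLRP family expressed in oocytes, was at 32.8%, 41.5% and 41.5% on 3437, 3460 and 2013 reads, with a first step of 8.68 points (exact test, adjusted p = 9.73e-12) and a second of 0.00639 points (-2.69 to 2.72). Nlrp14 was at 26.4%, 32.4% and 29.9%, and Tiparp, a mono-ADP-ribosyltransferase, at 15.5%, 22.7% and 21.9%. In these 3 the first step was called risen and the second was not called. Kif17, a kinesin motor, was at 14.4%, 20.1% and 23.3%, Cd164l2 at 15.1%, 19.7% and 23.8%, and Tent5b, a paralogue of Tent5c, at 61.0%, 66.1% and 71.5%, and rose at both steps. Kpna7, the importin alpha of the oocyte, was at 50%, 55.6% and 57.6%. The Type II sites of Lsm14b (180025236), AU022751 (6082712) and Oas1c fell at the second step, from 23.9% to 20.6%, from 27.3% to 24.1% and from 20.0% to 12.3%. An exception among the shallower ones was Dsn1, a kinetochore protein, at 27.2%, 39.3% and 56.8%, which was chosen for mention after its values were seen.

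**Figure D5:**
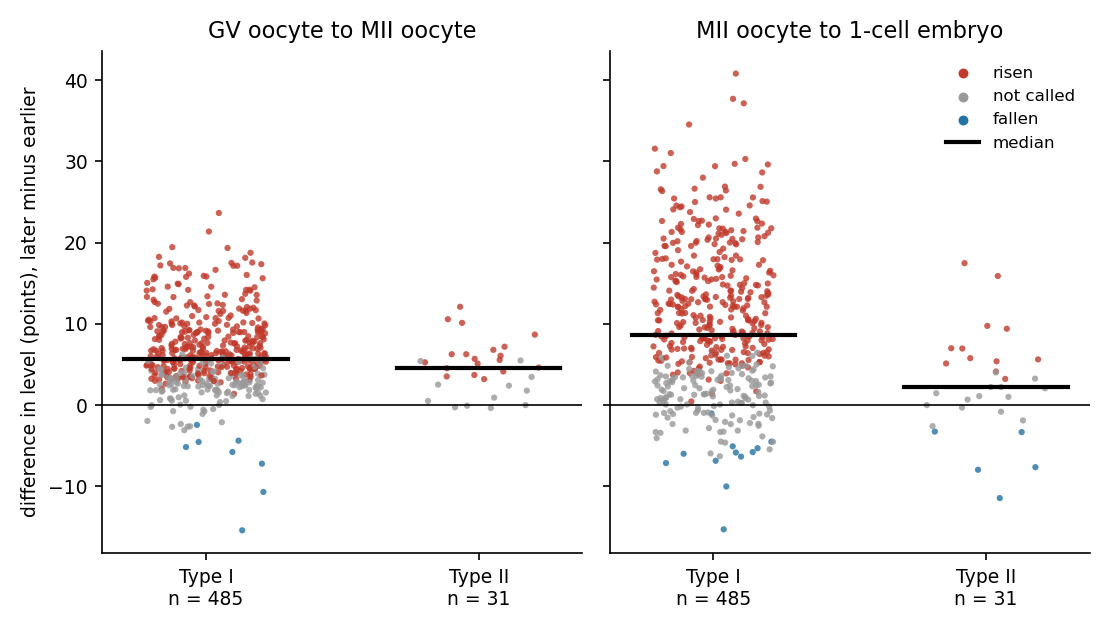
Difference in m5C level (points, vertical axis) of each chosen site at the first step (left) and the second (right), for 485 Type I and 31 Type II sites, coloured by the call of Fisher's exact test, with the median as a bar. At the second step the Type I median is 8.66 points and the Type II median 2.23 points, and 2 Type II sites lie at 10 points or more.

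In place and sequence the chosen sites were close to the other sites listed at every stage, save for a smaller share in the 3′ UTR and a larger one at the start of the coding sequence. The coding sequence held 393 of them (76.2%, interval 72.3% to 79.6%), the 5′ UTR 64 (12.4%), the 3′ UTR 51 (9.88%) and exons of noncoding transcripts 8 (1.55%), against 72.3%, 10.9%, 15.2% and 1.46% of the others. The interval of the 3′ UTR share, 7.60% to 12.8%, did not reach that of the others. Intervals of shares take sites as independent, while many chosen sites share a gene, so these differences were described and not tested. A position in the first 100 nt of the coding sequence was found for 47 sites (9.11%, interval 6.92% to 11.9%), and for 5.99% of the others. The median second step was 8.48 points in the coding sequence, 6.99 points in the 5′ UTR and 9.06 points in the 3′ UTR, with overlapping intervals of the medians (7.14 to 10.1, 4.78 to 8.66 and 5.79 to 12.1 points).

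The bases after the site carried G in both groups. G stood at +2 in 63.4% of the chosen sites and 64.8% of the others, at +3 in 60.9% and 61.6%, and at +4 in 49.4% and 51%. At +1, G stood in 37.4% and 34.9%. A stood there in 35.7% (interval 31.6% to 39.9%) and 40.5%, and C in 16.1% (13.2% to 19.5%) and 12.8%. In chosen Type I sites with 1, 2, 3 and 4 G at +1 to +4, the number of G made little difference to the steps. The medians were 5.48, 6.03, 5.62 and 5.03 points at the first step and 8.25, 8.45, 9.56 and 9.68 points at the second. The 4 chosen Type I sites with 0 G had medians of 7.71 and 4.87 points. Of the 5-base motifs from the site on, CAGGA was the most frequent (39 sites, 16.4%, 23.0% and 33.9% at the median), then CAGGG (34 sites) and CUCCA (29 sites). Among motifs with at least 6 sites, the median second step was smallest for CUCCA (2.23 points) and CCGGA (2.50 points) and largest for CGGAA (22.3 points), on 29, 6 and 6 sites. Genes were not matched for these motifs, and no test was made. In windows reaching 50 nt to either side, folded at 37 °C, the site was paired in 62.5% of 510 chosen and 58.8% of 5562 other windows, and the 4 bases after it in 67.6% and 70.6%. In the 31 Type II windows those 4 bases were paired in 31.5%, against 69.9% in the 479 Type I windows.

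Many sites came from the same transcripts and are not independent. Of the 316 genes 200 held 1 chosen site and 116 held more, with 316 sites. In these 116 genes all sites were higher at the first step in 104 genes, all lower in 3 and mixed in 9. At the second step all were higher in 80 genes, all lower in 3 and mixed in 33.

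Pdcd7, a protein of the minor spliceosome, held the most, with 8 sites within its first exon on chromosome 9 between 65346386 and 65346946. Their GV oocyte levels ran from 10.6% to 69.2% and their second steps from 0.948 points at 65346946 (39.4% to 40.4%) to 20.0 points at 65346386 (43.2% to 63.2%). AU022751 on chromosome X held 7 sites, with GV oocyte levels from 15.8% to 64.6%, and its highest site, at 6082216, went through 64.6%, 76.3% and 83.2%. Trim27, a RING finger protein, held 7 sites on chromosome 13 over the 5′ UTR and the start of the coding sequence. Its 5′ UTR site at 21180338 was at 70.0%, 74.8% and 82.0%, while the 3 coding sequence sites had second steps of 15, 20.2 and 12.2 points. Tent5c showed the widest contrast within a transcript. Beside its 3′ UTR site near 95%, the coding site at 100473151 went from 14.2% and 20.9% to 46.5%, and the site at 100472806 from 10.9% and 14% to 15.1%. In Txnip, an inhibitor of thioredoxin, 3′ UTR sites 20 nt apart were at 42.2%, 58.0% and 84.7% (96560598) and at 14.9%, 23.9% and 29.7% (96560618).

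Neighbouring cytosines with nearly the same reads gave a comparison in which depth and transcript are shared. Of 16 pairs of chosen sites within 10 nt, 13 were 1 nt apart, and 15 pairs kept the order of their levels in the 3 libraries. In Tet3, which codes for the dioxygenase that oxidizes 5-methylcytosine of DNA in the zygote, the upstream site at 83368814 was at 89.4%, 91.9% and 94.3%, and the next base at 51.1%, 61.5% and 77.5%. In Yap1, a co-activator of the Hippo pathway, the pair was at 75.1%, 84.2% and 86.6% and at 43.3%, 55.8% and 66%. Furin, a proprotein convertase, had 83.3%, 88.2% and 92.1% beside 27.4%, 32.9% and 36.5%. The lower site of Tet3 and that of Yap1 had the larger differences at both steps, while in Furin the steps were 4.84 and 3.91 points at the higher and 5.49 and 3.63 points at the lower site. In Pfn1 both sites were lower in the MII oocyte, at 73.1%, 62.5% and 78.2% and at 15.6%, 13.0% and 21.5%.

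In Uhrf1 the neighbours took opposite ways at the second step. Uhrf1, the factor that recruits DNMT1 to hemimethylated DNA, had 2 sites in its 3′ UTR with 375 reads each in the 1-cell embryo. The upstream site went through 17.3%, 23.4% and 16.3% and fell (exact test, adjusted p = 0.0132), and the downstream site through 20.5%, 26.2% and 52.8% and rose (adjusted p = 3.96e-16). In Ehf, an ETS-family transcription factor, the downstream site went through 63.4%, 80.9% and 94.0% and its upstream neighbour through 31.4%, 35.2% and 29.3%, where the second step was not called (exact test, adjusted p = 0.0805). The pair of Nono, an RNA-binding protein of paraspeckles, was at 29.6%, 32.4% and 33.1% and at 75.6%, 72.6% and 89.4%. In both Uhrf1 and Ehf the upstream cytosine, which begins CCAGG, was lower in the 1-cell embryo than the next base. The pairs were looked up after their values were seen.

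Of the oocyte's own genes, the list of maternal-effect and oocyte-specific genes held 26 chosen sites in 14 of its 45 genes. Of these 23 rose (88.5%) and 0 fell at the first step, and 18 rose (69.2%) and 1 fell at the second, with medians of 5.60 and 4.80 points. Over all chosen sites 71.5% rose and 1.55% fell at the first step and 66.7% rose and 3.29% fell at the second, with medians of 5.61 and 8.22 points, and each list below is to be read against these shares. Zar1, needed for the passage from egg to embryo, was at 14.8%, 20.7% and 27.0% on 10251, 8371 and 3055 reads, and Ooep, of the subcortical maternal complex, at 12.6%, 16.1% and 15.9%. H1foo, the linker histone of the oocyte, was at 28.5%, 32.1% and 37.7%. The deepest 3′ UTR site of Tcl1, at 105218232, was at 10.5%, 15.2% and 10.7% and fell at the second step, while the site at 105216864 of the same UTR, described above, rose to 57.1%. Zfp57, which protects imprints, had 5′ UTR sites at 20.5%, 24.4% and 28.2% and at 12.5%, 17.2% and 21.7%. The list of zona and oocyte-secreted factors held 2 sites, of Gdf9, with a rise at both steps, and of Bmp15 at 12.5%, 14.1% and 13.1%, with no call at either.

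Genes that act on the stored messenger RNA held 9 sites in 6 of 40 genes, of which 6 rose (66.7%) at the first step, and 4 rose (44.4%) and 1 fell at the second. Btg4, the adaptor that brings the CCR4-NOT deadenylase to maternal messages, was the highest at 77.8%, 87% and 91.7%. Eif4e1b, the cap-binding protein of the oocyte, was at 10.2%, 20.6% and 33.5% on 547, 549 and 310 reads. Pabpc1l, the poly(A)-binding protein of the oocyte, was at 14.9%, 21.1% and 31.2%. Lsm14b, found in RNA-protein granules, held 4 sites between 18.5% and 25.9% in the GV oocyte, of which 1 rose and 1 fell at the second step. The deadenylase subunit Cnot7 was at 12.1%, 14.5% and 15.2%, with no call.

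Translation factors and ribosomal proteins held 11 sites in 9 of 477 genes. At the first step 4 rose (36.4%) and 2 fell, with a median of 0.927 points, and at the second 7 rose (63.6%) and 1 fell, with a median of 12.3 points, on 11 sites that were not compared with the rest by a test. The sites of Eef2, the elongation factor of ribosomal translocation, were at 12.4%, 11.9% and 39.9% and at 30.2%, 27.5% and 39.8%. The first step was below 0 at both and was not called. Eif5a (11.7%, 17.1% and 26.9%) rose at both steps, and Eif6 (19.8%, 26.5% and 26.2%) at the first. Of the 4 sites of mitochondrial genes, 2 rose at the first step (median 3.09 points) and 4 at the second (12.6 points). Atp5b, of the ATP synthase, was at 13.3%, 13.7% and 33.5%, and Atp5j2 at 25.4%, 26.6% and 40.1%.

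The ubiquitin list held 34 sites in 17 of 313 genes, of which 26 rose (76.5%) and 0 fell at the first step and 23 rose (67.6%) and 2 fell at the second, shares near those of all chosen sites. The deepest of them were in Uchl1 (12.0%, 14.9% and 21.3%) and Trim61 (18.4%, 25.3% and 32.3%). Fbxo8, an F-box protein, was at 15.6%, 24.6% and 46.8%. Ube2d2a, a ubiquitin-conjugating enzyme, was at 15.3%, 21.7% and 43.0% and at 23.4%, 33.1% and 41.1% at 2 sites. The sites of Fbxo8 and Ube2d2a were shallower and had larger second steps. The chromatin list held 14 sites in 7 of 201 genes, with 11 rises (78.6%) and 0 falls and then 10 rises (71.4%) and 1 fall. The deepest of these, in the 3′ UTR of Npm2, was at 18.7%, 27.1% and 25.9%, with no call at the second step. Kdm2b, a histone demethylase, was shallower and had a larger second step, at 11.0%, 14.3% and 34.3% at 122984487. The cytoskeleton list held 8 sites in 6 of 172 genes, with 6 rises and 1 fall and then 7 rises and 1 fall. Tubb3, among the deepest of these, was at 21.2%, 25.9% and 20.0% and fell at the second step. Dync1i2, an intermediate chain of dynein, was shallower, at 35.1%, 53.3% and 68.8%. Among genes of meiosis and the cell cycle, 2 of 58 held a chosen site. Plk1, the polo-like kinase, was at 16.9%, 27.0% and 42.9% and Aurkc, the aurora kinase of the oocyte, at 49.1%, 55.1% and 69.1%, and both rose at both steps. Of 16 m5C enzymes and readers, Tet3 alone held chosen sites, 4 in number. No chosen site lay in the lists of follicle somatic cell markers or of sperm and early zygotic markers. The lists overlap and their genes differ in number of sites, so the counts describe and do not rank them.

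The 8 sites in noncoding transcripts had a median first step of -0.267 points (-7.20 to 15.7). Rpph1 was at 17.4%, 10.2% and 19.1% on 2044, 2996 and 6667 reads at 50807590, and at 16.2%, 10.5% and 24.0% at 50807634, and its coverage, unlike that of most chosen sites, was highest in the 1-cell embryo. The sites listed under Gm47287 and Gm47305, on chromosome 12 at 69159496 and 69361280, fall within the RefSeq genes Rn7s1 and Rn7s2 of 7SL RNA, the RNA of the signal recognition particle. They were at 17.1%, 14.7% and 17.8% and at 16.1%, 15.1% and 14%, and the latter was the only chosen site lower at both steps. The copies are nearly identical, so reads could have been placed at either, and the values of each are uncertain. For 44 of the 516 sites the 51 nt around the site also occur in transcripts of another gene, among them sites of Rpph1, Rps9, Oas1c, Oaz1, Aurkc and Pla2g4c.

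At the upper end, 2, 6 and 20 sites reached 90% or more in the order of the stages. The highest in the 1-cell embryo were Rbpms2, an RNA-binding protein (77.6%, 89.5% and 97.6%), Mark2, a microtubule affinity-regulating kinase (68.0%, 81.4% and 97.5%), and the Zbed3 site at 95336484. Others high in every library were Arf3 (86.8%, 87.3% and 95.4%), Cpsf4l (88.3%, 92.4% and 93.3%) and Mllt10 (85.8%, 91.4% and 92.6%). Close to the 10% limit in the GV oocyte lay Mapre1 (10.0%, 15.1% and 24.2%), Cmya5 (10.1%, 13.9% and 34.6%), Mcm5 (10.1%, 12.7% and 24.8%), Ranbp9 (10.1%, 15.9% and 11.8%) and Arid5b (10.2%, 18.7% and 26.6%). The lowest in the 1-cell embryo were Dlgap4 at 10.5%, Tcl1 at 10.7%, D7Ertd443e at 10.8%, Spg20 at 11.0% and Eif1ax at 11.1%. Large gains over both steps beside those named were seen at Fpgs, which retains folate in cells (27.6%, 44.9% and 74.6%), and Tent4b, a poly(A) polymerase (47.4%, 62.9% and 92.6%). Just inside the coverage threshold, with 302 reads in the 1-cell embryo, lay sites of Atg14 (25.2% there), Ski (37.4%) and Fbxo34 (46.7%), and just outside lay sites of Tubb4b (45.2% of 299 reads), Stk35 (10.4% of 299 reads) and Srsf2 (38.3% of 298 reads).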

How the data were processed

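RNA bisulfite sequencing lists were used for 1 library each of GV oocytes, MII oocytes and 1-cell embryos. For each site the authors deposited its coverage, a raw count of reads (C plus T), and its m5C level, which the authors gave as the fraction left unconverted and which is printed in percent. The p-value deposited by the authors is from a binomial test against the conversion of the gene, and served to recover the unconverted background of a gene. Per the labels, reads were trimmed with cutadapt 1.13 and Trimmomatic 0.36 and aligned with HISAT2 and Bowtie2 2.2.9 to mm10 (GRCm38). No listed site had under 20 reads, a level under 10% or fewer than 5 unconverted reads, so a site missing from a list may be unmethylated, below these limits or not covered.

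Unconverted reads were taken as level times coverage. The chosen sites had 300 or more reads in each list, and all 516 were C on the given strand. Regions and windows came from GENCODE M21, in the order coding sequence, 5′ UTR, 3′ UTR and other exon, and symbols were taken by gene identifier, which changed that of 22 sites. CUCNA from the site on was called Type II and all else Type I. Windows of 50 nt to either side of the site were folded with ViennaRNA 2.7.2 at 37 °C.

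Each site shared by a pair of lists was tested with Fisher's exact test, two-sided, with Benjamini-Hochberg adjustment over all shared sites of the pair and a threshold of 0.05, and a size rule of 10 points was counted with no test. Wilson 95% intervals were given for levels and shares, and order-statistic 95% intervals for medians. Those of shares and medians take sites as independent. Tests were made with scipy 1.17.1 and pandas 2.3.3 under Python 3.11.15 (numpy 2.4.6), sequences were read with samtools 1.23.1 and pysam 0.24.0, and plots drawn with matplotlib 3.10.9. The alternatives were other coverage and level minima, 1 site per gene, reads divided by 5, coverage set to at most 100 reads, Bonferroni adjustment, the gene background taken off, CUCCA alone for Type II, and the transcript with the longest coding sequence. The chosen sites without copies in other genes and those on protein-coding genes alone were added after the data were seen.

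Named sites were the 10 deepest (1 per gene), the 5 largest called rises and falls of each pair, the 5 highest and lowest of each stage, the 5 with the smallest range, members of 12 gene lists, the 10 deepest Type II sites, the 5 genes with most sites, and 3 sites on either side of the threshold. The sites and the lists were chosen with earlier results of these data known.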

Additional observations from a re-analysis of the deposited data

How the results depend on the processing

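Medians of the differences moved little except at sites of 20% or more in every list. Shares of called sites moved with depth, with the level minimum and with the adjustment. The share of chosen sites risen at the first step, GV to MII (71.5%), was 63% at a minimum of 200 reads and 82% at 500 reads, 79% at sites of 20% or more in every list, 11.2% with reads divided by 5, 0.194% with coverage set to at most 100 reads, and 39.9% by Bonferroni adjustment. The share fallen (1.55%) was 0.437% at sites of 20% or more, 0.194% with reads divided by 5 and 0% with coverage set to at most 100. At the second step, MII to 1-cell, the share risen (66.7%) was 71% at 500 reads, 72.5% at 20% or more, 26.4% with reads divided by 5, 23.4% at coverage of at most 100 and 45.3% by Bonferroni adjustment, and the share fallen (3.29%) was 0%, 0.194% and 0.775% in the last 3. Over both steps the share risen (88.0%) was 90.6%, 92.6%, 58.7%, 50.6% and 69.6% in the same order of 5 settings, and the share fallen (0.581%) was 0% in all but the first of them. Fewer reads per site lower these shares by construction. A level of 20% or more raised the median differences to 8.04, 10.5 and 19.0 points and the median levels to 35.4%, 43.8% and 58.3% in the order of the stages. With 1 site per gene the GV and MII oocyte medians were 17.1% and 22.5%, and at 500 reads that of the 1-cell embryo was 31.9%. A gene background could be recovered for 369 chosen sites in the GV library, 414 in the MII library and 497 in the 1-cell library. It was at most 2.42% where it was recovered, and is not known for the remaining chosen sites. Taking background off moved the median differences to 5.58, 8.16 and 13.9 points. These medians were taken over all 516 sites, so they include sites whose own background was not recovered. Leaving out sites with copies in other genes, or those on noncoding genes, both added after the data were seen, left the median differences within 0.14 points, while the share fallen at the first step went to 0.847% (4 sites in place of 8) and 0.984% and that over both steps to 0.212% (1 site in place of 3) and 0.394%. The other 64 values stayed within the interval of the main value. No replicate could be left out, and no paired analysis was possible because each stage has 1 library.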
